A study of Mus musculus with 14 samples.

Results

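The effect of cysteamine was set against the effect of cysteine starvation in MEF cells, embryonic fibroblasts of the mouse, which build connective tissue. For each of 1399 listed transcripts, the log2 fold change of cysteamine-treated cells against their untreated group NT2 was reduced by the log2 fold change of cysteine-starved cells against their untreated group NT. The result is called the difference of effects, and a negative value means that the cysteamine effect lay below the starvation effect. All 1399 transcripts entered, and 8 of the 14 libraries of the series. Each of the 4 groups held 2 libraries of wild-type cells: cysteamine treatment, no treatment (NT2), cysteine starvation and no treatment (NT). No dose, time or medium was given in the labels. The other 6 libraries, from full amino acid starvation, sh-CTNS knockdown and that knockdown plus a CTNS plasmid, served to estimate the spread between libraries and to define a class of transcripts described further on. The pairing of NT with the starvations and of NT2 with cysteamine was read from the sample names and from the column headers of the count files, which carry the prefix mRNA for NT and the starvations alone.

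Cystine, the oxidised dimer of cysteine, enters cells through the exchanger made of Slc3a2 and Slc7a11 and leaves lysosomes through cystinosin, the product of Ctns. Cysteamine, an aminothiol given in cystinosis, reacts with lysosomal cystine, and the mixed disulfide formed leaves the lysosome by another carrier. When amino acids run short, uncharged transfer RNAs activate the kinase Gcn2, and translation of the transcription factor Atf4 rises. Atf4 drives genes for amino acid import, amino acid synthesis and transfer RNA charging. Ctns itself and Slc7a11 were not among the listed transcripts.

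The libraries differed in depth and in makeup. Totals over the listed transcripts were 135829 and 162055 counts with cysteamine and 165747 and 132998 in NT2, against 51224 and 46925 in cysteine starvation and 33990 and 25697 in NT. Library sizes were scaled by TMM, a trimmed mean of log ratios, and levels are given as CPM, counts relative to the scaled library size. By that scale 1 count was worth 5.34 and 4.45 CPM with cysteamine, 3.96 and 4.84 CPM in NT2, 16.5 and 25 CPM in the starved ones, and 35.8 and 98 CPM in NT replicates 1 and 2. A class of 354 transcripts was high in full amino acid starvation relative to CTNS knockdown, by more than 2 times the median ratio, in libraries that do not enter the difference. It took 19.3% and 18.2% of the counts with cysteamine, 14.2% and 13.9% in NT2, 40.7% and 59.6% in cysteine starvation, and 64.8% and 86.5% in NT. The class also holds matrix genes that were low in CTNS knockdown, such as Lox and Col1a2. The 3 most counted transcripts of the series, Luc7l2, Pigl and Pglyrp3, alone took 36% and 54.5% of the counts in NT. Their share was 20.5% and 33.1% in cysteine starvation, 8.0% and 7.7% with cysteamine, and 3.5% and 3.3% in NT2. The pair of libraries in a group had a Spearman correlation over transcripts, as a description, of 0.970 with cysteamine, 0.976 in NT2, 0.830 in cysteine starvation and 0.556 in NT. Whether each pair stands for separate cultures was not in the labels, and the p-values cover only the spread among these libraries, which may be technical.

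The difference of effects asks which transcripts responded unequally to the drug and to the missing amino acid. Transcripts below 0 included genes of amino acid supply (Aars, Lars, Mthfd2, Aldh18a1), of the extracellular matrix (Col1a2, Lox, Fn1) and the chaperone gene Hspa5. Transcripts above 0 belonged mostly to the class described above and included Casp1, Slc6a15 and Cubn. The quasi-likelihood test of edgeR, adjusted by Benjamini-Hochberg, called 62 transcripts above 0 (4.43% of 1399) and 33 below 0 (2.36% of 1399) at an adjusted p under 0.05, which makes 95 in either direction (6.79%). Of those above 0, 57 belonged to the class and 5 did not. Of those below 0, 9 belonged to it and 24 did not. Of all 1399 transcripts, 354 belonged to the class and 1045 did not, so the calls below 0 held it at about its share among all. The median difference over all transcripts was 0.09 on the log2 scale, and 309 transcripts had an unadjusted p under 0.05.

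Each effect was also tested alone in the same fit. Cysteamine against NT2 gave 77 transcripts higher (5.5% of 1399) and 70 lower (5% of 1399). Cysteine starvation against NT gave 0 (0% of 1399), with a smallest adjusted p of 0.057 and 230 unadjusted p under 0.05. For starvation, the calls of DESeq2 were 12 higher and 55 lower, and those of limma 5 higher and 0 lower. All 62 transcripts called above 0 had a positive cysteamine effect (median 1.19) and a negative starvation effect (median -1.46). All 33 called below 0 had a negative cysteamine effect (median -0.98), and 32 had a positive starvation effect (median 0.81), Plxna4 being the exception. Opposite signs add up in a difference, so this pattern was favoured by the call itself. Of the 33, 21 were also called lower by cysteamine alone, and of the 62, 17 were also called higher. Both pairs of libraries separated in opposite directions in 57 of the 62, where 9.79% of all transcripts had cysteamine above NT2 and starvation below NT. They did so in 24 of the 33, where 8.29% of all had cysteamine below NT2 and starvation above NT. The separation comes from the same values as the call, so it adds no separate evidence.

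**Figure D1:**
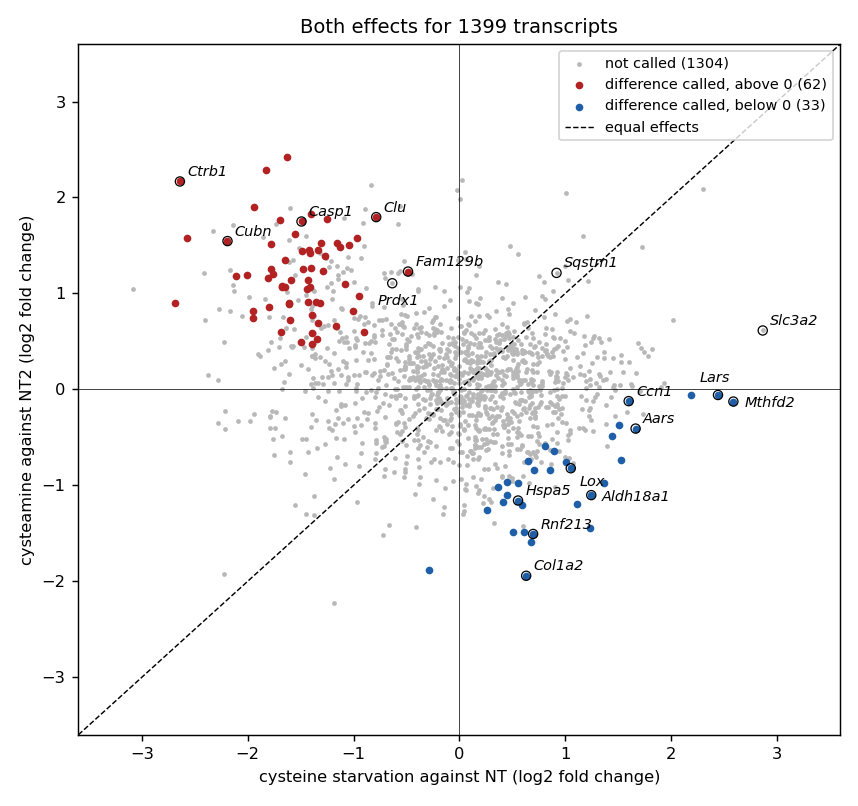
Log2 fold change of cysteamine against NT2 (vertical axis) and of cysteine starvation against NT (horizontal axis) for 1399 transcripts, with the 62 called above 0 in red and the 33 called below 0 in blue. Called transcripts lie away from the dashed line of equal effects, the red ones in the upper left and 32 of the 33 blue ones in the lower right.

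Calls depended on single libraries. Without NT2 replicate 1, NT2 replicate 2 or cysteamine replicate 1 edgeR called 0 transcripts in either direction, with 156, 163 and 151 unadjusted p under 0.05 above 0 and 103, 114 and 101 below 0. All 62 and all 33 kept their sign in each of the 8 fits that left out 1 library. They had been selected for large differences in these same libraries, so the kept signs are no independent check. Other counts above and below 0 were 15 and 10 without cysteamine replicate 2, 3 and 5 without cysteine starvation replicate 1, 13 and 7 without NT replicate 2, and 117 and 36 without NT replicate 1. The split of the calls followed the scaling: with total counts in place of TMM, 31 were called above 0 and 147 below 0, and the median of all transcripts was -0.74. By other tools, DESeq2 called 96 above and 35 below 0, and limma 9 and 2. With the class left out and the remaining 1045 scaled anew, 5 were above and 9 below 0. A further fit pooled NT and NT2 as 1 untreated group. That group cancels in the difference, so its values set cysteamine libraries directly against starved ones. It therefore estimates another quantity and is no check of the main contrast.

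Listed genes that supply amino acids had cysteamine effects near 0 and mostly positive starvation effects, of which 0 were called. Of 16 measured transporters, synthesis enzymes and aminoacyl-tRNA synthetases in the lists, all 16 had a difference below 0. That was so for 46.6% of all transcripts. Slc6a15, a transporter of branched-chain amino acids outside these lists, was called above 0 and is described further on. Among the 16, 4 were called below 0, against 2.36% of all transcripts, and 0 above 0. Their median cysteamine effect was -0.06, their median starvation effect 1.14 and their median difference -1.04. Cysteamine alone called 1 of the 16, against 5% of all transcripts called lower, namely Aldh18a1, which was lower than in NT2. In the starved cells 12 of 16 had both libraries above both NT libraries, a pattern found in 24.5% of all transcripts. The lists were chosen with earlier results of these data known, so these shares are a description and no test of the lists.

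Aminoacyl-tRNA synthetases load amino acids onto their transfer RNAs, and 2 of the 8 measured were called below 0, against 2.36% of all transcripts, with a median difference of -0.95. Aars (ENSMUST00000034441), the alanyl-tRNA synthetase, measured 619 and 640.5 CPM with cysteamine, 887 and 784 CPM in NT2, 1122 and 876 CPM in cysteine starvation, and 251 and 490 CPM in NT. Neither pair of groups overlapped, the cysteamine libraries lying below NT2 and the starved ones above NT. The cysteamine effect on Aars was -0.41 ± 0.19 (SE) and the starvation effect 1.66 ± 0.38, a difference of -2.07 ± 0.42 (edgeR adjusted p = 0.0206). It lost the call without NT replicate 1 (-1.46) and without cysteine starvation replicate 1 (-1.87). Lars (ENSMUST00000097590), the leucyl-tRNA synthetase, measured 261.5 and 280 CPM with cysteamine, 293 and 271 CPM in NT2, 759 and 325 CPM in cysteine starvation, and 107 and 98 CPM in NT. Its cysteamine and NT2 libraries overlapped, while both starved libraries lay above NT. The cysteamine effect was -0.06 ± 0.23 and the starvation effect 2.44 ± 0.58, with a difference of -2.50 ± 0.64 (edgeR adjusted p = 0.0359). Leaving out NT replicate 1, NT replicate 2, cysteine starvation replicate 1 or cysteamine replicate 2 also ended the call for Lars, and without cysteine starvation replicate 1 the difference was -1.68. Of 18 alternatives, Aars was called in 11, with values from -2.93 to -0.67. Lars was called in 7 of 18, with values from -3.34 to -1.04. The NT libraries held 7 and 5 counts of Aars and 3 and 1 of Lars. The other 6 synthetases lay between -1.07 for Nars and -0.10 for Eprs, the glutamyl-prolyl enzyme and the only class member among them.

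The promoter of Aars is shown because it carries the motif that dimers of Atf4 read, and that of Yars, the tyrosyl-tRNA synthetase, because it was the only other matched synthetase promoter with that motif. The motif searched was TGATGNAA on both strands, in RefSeq windows of 300 bases on GRCm38.p6, from 250 before to 50 after the start. Capitals mark it and a further motif, TGACNNNGC, the antioxidant response element read by dimers of Nrf2. The window of Aars is chr8:111033592-111033891 on the plus strand and that of Yars is chr4:129189653-129189952 on the plus strand.
Aars: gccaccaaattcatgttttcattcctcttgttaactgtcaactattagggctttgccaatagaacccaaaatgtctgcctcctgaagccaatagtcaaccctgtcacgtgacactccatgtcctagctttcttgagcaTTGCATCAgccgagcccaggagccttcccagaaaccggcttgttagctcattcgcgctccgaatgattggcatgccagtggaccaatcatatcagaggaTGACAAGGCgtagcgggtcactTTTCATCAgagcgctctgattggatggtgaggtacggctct
Yars: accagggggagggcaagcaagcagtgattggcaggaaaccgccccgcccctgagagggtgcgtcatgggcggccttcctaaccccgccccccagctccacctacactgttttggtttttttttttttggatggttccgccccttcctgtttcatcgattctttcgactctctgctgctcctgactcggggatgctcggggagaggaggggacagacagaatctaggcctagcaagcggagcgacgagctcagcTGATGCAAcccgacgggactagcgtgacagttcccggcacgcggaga
The Aars window holds TGATGNAA at 2 places and TGACNNNGC at 1, and the Yars window holds TGATGNAA at 1 place. Of the 8 synthetases 5 had a promoter in the table and 2 of these held TGATGNAA. The other amino acid lists had no such match. That motif was found in 0 of 2 matched transporters, 0 of 4 synthesis enzymes and 0 of 2 stress response factors of the Atf4 pathway. Over all genes of the table the share was 4.51% for TGATGNAA and 13.99% for TGACNNNGC, and over the 1095 listed transcripts that matched it was 2.47% and 17.5%. Among called transcripts, TGATGNAA was found in 1 of 24 matched below 0, which was Aars, and in 1 of 46 matched above 0. Yars itself had a difference of -0.77 ± 0.53 (edgeR adjusted p = 0.509), so the letters and the call did not go together in this pair. A match is a description of the sequence and not of binding.

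Enzymes of amino acid synthesis and folate metabolism had a median difference of -1.85, with 2 of 4 called below 0, against 2.36% of all transcripts. Mthfd2 (ENSMUST00000005810), a mitochondrial enzyme of folate metabolism, measured 192 and 236 CPM with cysteamine, 241.5 and 227.5 CPM in NT2, 446 and 526 CPM in cysteine starvation, and 71.6 and 98 CPM in NT. The cysteamine and NT2 libraries overlapped and the starved libraries lay above NT. The difference was -2.72 ± 0.69 (edgeR adjusted p = 0.0359), from a cysteamine effect of -0.13 ± 0.26 and a starvation effect of 2.59 ± 0.63. NT held only 3 counts of Mthfd2 in all, and the exact 95% interval of the starvation ratio ran from 1.96 to 30.5 around 6.07, which covers counting error alone. Mthfd2 was called in 5 of 18 alternatives, and not by DESeq2, by limma or without the class. No fit without 1 library called Mthfd2, with differences between -2.88 and -2.41. Aldh18a1 (ENSMUST00000025979), which opens proline synthesis, measured 155 and 169 CPM with cysteamine, 364 and 334 CPM in NT2, 627 and 501 CPM in cysteine starvation, and 107 and 588 CPM in NT. Cysteamine lowered it without overlap with NT2 (-1.10 ± 0.26, edgeR adjusted p = 0.015), but NT replicate 2 lay between the starved libraries. The difference for Aldh18a1, a member of the class, was -2.35 ± 0.56 (edgeR adjusted p = 0.0293) and only -1.07 without NT replicate 1. Shmt2, which makes glycine from serine in mitochondria, stood at -1.35 ± 0.57 (edgeR adjusted p = 0.171). Phgdh, the entry to serine synthesis, stood at -0.84 ± 0.48 (edgeR adjusted p = 0.334).

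The list of amino acid transporters gave 0 calls among 4 measured, with a median difference of -1.25. Slc6a15, a transporter that is not in that list, was called above 0. Slc3a2 (ENSMUST00000170157), the heavy chain of several exchangers, the cystine importer among them, measured 224 and 213.5 CPM with cysteamine, 123 and 165 CPM in NT2, 693 and 451 CPM in cysteine starvation, and 35.8 and 196 CPM in NT. Both treated groups lay above their untreated groups without overlap. The cysteamine effect was 0.61 ± 0.31, the starvation effect 2.87 ± 0.67, and the difference of -2.25 ± 0.79 was not called (edgeR adjusted p = 0.101). With 3 counts in NT, the starvation ratio of 7.59 for Slc3a2 had an exact 95% interval of 2.47 to 37.8. Carriers of glutamine and other neutral amino acids, Slc38a2 (-1.02 ± 0.52), Slc38a1 (-0.91 ± 0.50) and Slc1a5 (-1.47 ± 0.98) were not called either. Atf4 measured 640 and 734 CPM with cysteamine, 622 and 610 CPM in NT2, 1172 and 726 CPM in cysteine starvation, and 466 and 392 CPM in NT. Its cysteamine effect was 0.16 ± 0.19, its starvation effect 1.14 ± 0.37 and its difference -0.97 ± 0.42 (edgeR adjusted p = 0.181). Vegfa, an angiogenic factor gene that amino acid stress can raise, had a difference of -1.30 ± 0.56 (edgeR adjusted p = 0.182), with a cysteamine effect of 0.72 ± 0.24 and a starvation effect of 2.02 ± 0.47.

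**Figure D2:**
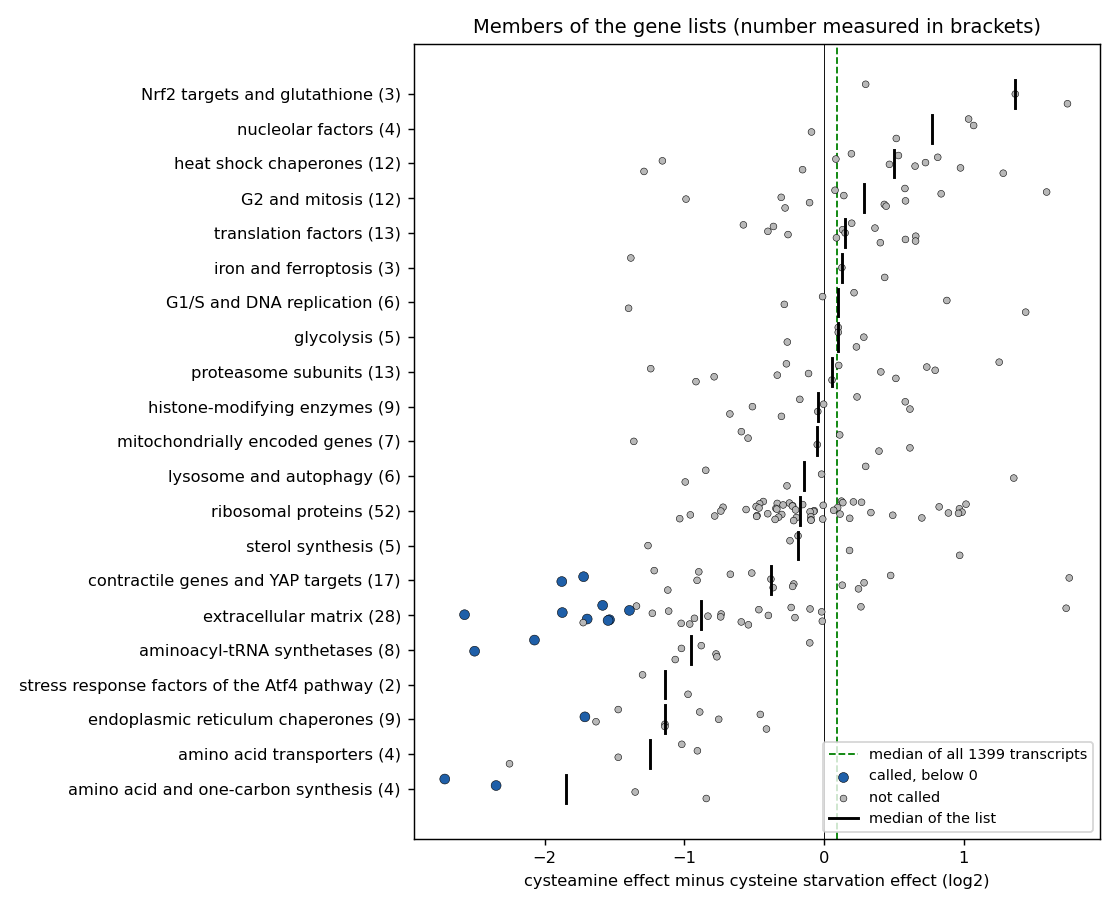
Difference of effects (log2, horizontal axis) for the measured members of 21 gene lists, 1 point per transcript, with list medians as black bars and the median of all 1399 transcripts as a dashed line. Amino acid, endoplasmic reticulum chaperone and matrix lists have medians between -1.85 and -0.88, and every called member lies below 0.

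Extracellular matrix genes formed the list with the most calls, 7 of 28 below 0, against 2.36% of all transcripts, and 0 above 0, with a median difference of -0.88. These were Col1a2, Col3a1 and Col5a2, which encode fibrillar collagens, Col6a1 of the microfibrillar collagen VI, the collagen and elastin crosslinking enzyme Lox, fibronectin (Fn1) and the metalloproteinase inhibitor Timp3. In all 26 of 28 lay below 0, where 46.6% of all transcripts did. The medians of the 2 effects were -0.47 for cysteamine and 0.59 for starvation, and cysteamine alone called 6 lower and 2 higher, against 5% and 5.5% of all transcripts. Of the 28, 10 belonged to the class.

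Lox (ENSMUST00000025409) had the smallest adjusted p of the matrix genes and measured 544 and 556 CPM with cysteamine, 970 and 978 CPM in NT2, 1056 and 1127 CPM in cysteine starvation, and 537 and 490 CPM in NT. Neither pair overlapped, and the cysteamine libraries stood near the level of NT while those of NT2 stood near that of starved cells. The cysteamine effect on Lox was -0.82 ± 0.16 (edgeR adjusted p = 0.00374), the starvation effect 1.05 ± 0.29 (unadjusted p = 0.00238 in the fit across all transcripts) and the difference -1.87 ± 0.33 (edgeR adjusted p = 0.0119). Col1a2 (ENSMUST00000031668), a chain of collagen I, measured 1612 and 1521 CPM with cysteamine, 6529 and 5518 CPM in NT2, 4143 and 5608 CPM in cysteine starvation, and 3940 and 2057 CPM in NT. Cysteamine lowered Col1a2 by 1.94 ± 0.33 (log2 effect -1.94, edgeR adjusted p = 0.00218), and the starvation effect of 0.63 ± 0.35 was smaller. Its difference was -2.57 ± 0.48 (edgeR adjusted p = 0.0147). Fn1, the most counted of the 7, measured 8038 and 8393 CPM with cysteamine, 14902 and 14430 CPM in NT2, 15250 and 12091 CPM in cysteine starvation, and 9348 and 5486 CPM in NT. The difference for Fn1 was -1.70 ± 0.49 (edgeR adjusted p = 0.0487), with effects of -0.84 ± 0.34 and 0.86 ± 0.35 that were nearly equal in size and opposite in sign. Fn1 was called in 7 of 18 alternatives. It lost the call without cysteine starvation replicate 1 (-1.51), NT replicate 2 (-1.39) or cysteamine replicate 2 (-1.73), and with RLE factors (-1.60). The remaining 4 lay between -1.59 for Col6a1 and -1.39 for Timp3, and calls were made in 5 of 17 alternatives for Col6a1, 6 for Col3a1 and 8 for Col5a2. Outside the threshold, Col1a1, the other chain of collagen I, stood at -1.34 ± 0.51 (edgeR adjusted p = 0.123) and Col6a2 at -1.72 ± 0.50 (edgeR adjusted p = 0.0502).

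Not every matrix gene was lower with cysteamine. Nid1, the basement membrane linker nidogen, measured 1318 and 1499 CPM with cysteamine and 558 and 441 CPM in NT2, against 842 and 701 CPM in cysteine starvation and 251 and 196 CPM in NT. Cysteamine raised it (1.49 ± 0.17, edgeR adjusted p = 0.000124), starvation stood at 1.72 ± 0.41, and the difference was -0.24 ± 0.48 (edgeR adjusted p = 0.844). Nid1 was described here after its values were seen, and a missed threshold does not show that its effects were equal.

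Other transcripts called below 0 were in none of the lists. The metalloproteinase genes Adamts1 (-1.80 ± 0.49) and Adamts5 (-1.55 ± 0.44) cut proteoglycans of the matrix, and both were lower with cysteamine than in NT2 (-1.20 ± 0.21 and -1.10 ± 0.19). Smpd3, a neutral sphingomyelinase (-2.10 ± 0.45), Slc18a2, a vesicular monoamine transporter (-1.77 ± 0.38), and the semaphorin receptor gene Plxna4 (-1.59 ± 0.41) followed, all 3 in the class. Plxna4 had the lowest adjusted p of the cysteamine effects together with Nid1 (-1.88 ± 0.21, edgeR adjusted p = 0.000124) and a starvation effect of -0.29 ± 0.36. For Adamts1, counts in NT were 11 and 1, and the exact 95% interval of its starvation ratio, 0.776 to 3.08, included 1. Calls were made in 5 of 18 alternatives for Adamts1 and 4 of 18 for Adamts5, and both lost the call with RLE factors. Of 17 alternatives, Smpd3 was called in 8, Slc18a2 in 9 and Plxna4 in 5.

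Rnf213 (ENSMUST00000093902), a large ubiquitin ligase gene, shared the smallest adjusted p of the whole comparison. It measured 704.5 and 765 CPM with cysteamine, 2150 and 2033 CPM in NT2, 1419 and 1277 CPM in cysteine starvation, and 860 and 784 CPM in NT. Neither pair overlapped. The cysteamine effect on Rnf213 was -1.51 ± 0.21 (edgeR adjusted p = 0.000367), the starvation effect 0.70 ± 0.29 and the difference -2.20 ± 0.35 (edgeR adjusted p = 0.0119). Rnf213 and Col1a2 stayed below 0 and called in all alternatives run except 4, namely 1 pooled untreated group and the fits without NT2 replicate 1, NT2 replicate 2 or cysteamine replicate 1.

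**Figure D3:**
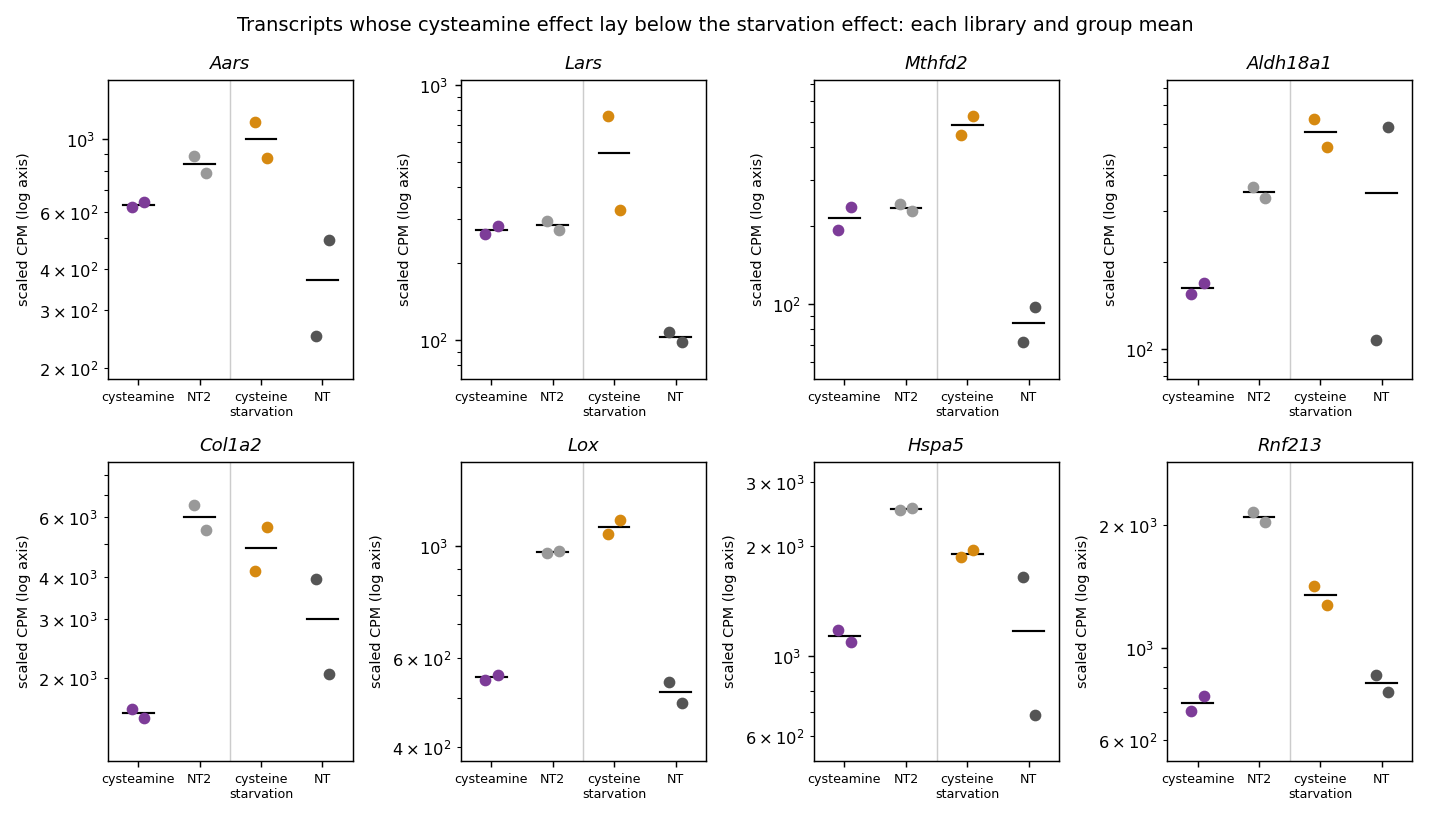
Scaled CPM on a log axis in each library of cysteamine, NT2, cysteine starvation and NT for 8 transcripts called below 0, with group means as lines. Cysteamine libraries lie below NT2 in all but Lars and Mthfd2, where they overlap, and starved libraries lie above NT in all but Aldh18a1.

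Chaperones of the endoplasmic reticulum, which fold and quality-check secreted proteins, differed mainly through cysteamine. All 9 measured had a difference below 0, where 46.6% of all transcripts did, and the median was -1.14. Only 1 of the 9, Hspa5, was called below 0, against 2.36% of all transcripts. With NT and NT2 pooled as 1 untreated group, which sets cysteamine directly against starvation, the median was 0.11. Cysteamine called 7 of 9 lower, at -1.30 for Pdia4, -1.18 for Calr, -1.16 for Hspa5, -0.98 for Pdia6, -0.95 for Hsp90b1, -0.94 for Hyou1 and -0.61 for Pdia3, where 5% of all transcripts were called lower, and the median starvation effect was 0.20. Hspa5 (ENSMUST00000028222), the main chaperone of this compartment, measured 1179 and 1090 CPM with cysteamine, 2510 and 2556 CPM in NT2, 1865 and 1953 CPM in cysteine starvation, and 1647 and 686 CPM in NT. The cysteamine libraries lay below NT2 and the starved libraries above NT, where the pair of libraries was far apart. The difference for Hspa5 was -1.71 ± 0.44 (edgeR adjusted p = 0.0359). It was not called without NT replicate 2 (-1.37), cysteine starvation replicate 1 (-1.74) or cysteamine replicate 2 (-1.67), and it was -2.63 without NT replicate 1. The disulfide isomerase Pdia6 (-1.63 ± 0.50, edgeR adjusted p = 0.0658) and calreticulin, Calr (-1.47 ± 0.47, edgeR adjusted p = 0.0691), lay just outside the threshold.

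Contractile genes and targets of the coactivator YAP gave 2 calls below 0 among 17, against 2.36% of all transcripts, with a median difference of -0.38. In both the starvation effect was larger in size than the cysteamine effect. Acta2 (ENSMUST00000039631), smooth muscle actin, measured 544 and 600 CPM with cysteamine, 788 and 692 CPM in NT2, 545 and 851 CPM in cysteine starvation, and 215 and 294 CPM in NT. Its starvation effect was 1.51 ± 0.42, its cysteamine effect -0.37 ± 0.17 and its difference -1.88 ± 0.45 (edgeR adjusted p = 0.0293). Ccn1 (ENSMUST00000029846), a matricellular YAP target, measured 715 and 894 CPM with cysteamine, 812 and 949 CPM in NT2, 1073 and 776 CPM in cysteine starvation, and 394 and 98 CPM in NT, where replicate 2 held 1 count. The difference for Ccn1 was -1.72 ± 0.48 (edgeR adjusted p = 0.0432). Ccn1 was called in 6 of 18 alternatives, with values from -3.38 without NT replicate 1 to -0.21 with NT and NT2 pooled, and lost the call without NT replicate 2 (-1.38), cysteine starvation replicate 1 (-1.43) or cysteamine replicate 2 (-1.90). Acta2 was called in 7 of 18, and lost the call without either NT replicate. The focal adhesion gene Zyx stood at -1.12 ± 0.42 (edgeR adjusted p = 0.12), and Tpm2, a tropomyosin, on the other side at 1.75 ± 0.57 (edgeR adjusted p = 0.0752).

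Transcripts called above 0 were mostly members of the class, whose median difference was 1.39, from a cysteamine effect of 0.46 and a starvation effect of -0.99. The other 1045 had a median of -0.12. The share of counts held by the class moved with these calls: it was higher with cysteamine than in NT2 and lower in starvation than in NT, in both libraries of each group. The part of that share in the calls was not tested beyond the fit without the class. Casp1 (ENSMUST00000027015), the inflammasome protease, measured 635 and 627 CPM with cysteamine, 194 and 179 CPM in NT2, 1700 and 4206 CPM in cysteine starvation, and 4871 and 12050 CPM in NT. The counts behind these levels were 119 and 141 with cysteamine, 49 and 37 in NT2, 103 and 168 in cysteine starvation, and 136 and 123 in NT. Both pairs were without overlap, in opposite directions. Cysteamine raised Casp1 (1.75 ± 0.46, edgeR adjusted p = 0.0236), starvation stood at -1.49 ± 0.43, and the difference was 3.24 ± 0.63 (edgeR adjusted p = 0.0166). Slc6a15, a transporter of branched-chain amino acids, measured 432 and 356 CPM with cysteamine, 107 and 121 CPM in NT2, 2261 and 5057 CPM in cysteine starvation, and 7593 and 9797 CPM in NT. It had a cysteamine effect of 1.78 ± 0.41 (edgeR adjusted p = 0.0112), a starvation effect of -1.25 ± 0.36 and a difference of 3.03 ± 0.54 (edgeR adjusted p = 0.0119). In both genes, the lowest starved library stood above the highest cysteamine library, and the difference of effects takes each treatment against its own untreated group. With NT and NT2 pooled, which sets cysteamine libraries directly against starved ones, 6 of the 62 called above 0 kept that sign. Of the 33 called below 0, 32 kept theirs. Casp1 then stood at -2.22 and Slc6a15 at -3.21.

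The largest called differences in the class with at least 10 counts in each group were those of Cubn, an endocytic receptor (3.74 ± 0.75), Zfp831, a zinc finger gene (3.46 ± 0.77), Pglyrp3, a peptidoglycan recognition protein (3.29 ± 0.88), and Adamts13, the protease of von Willebrand factor (3.29 ± 0.81). Pcdha9, Pglyrp4, Ccn6, Gnmt and Hoxa9 followed, between 3.23 and 3.0. Pglyrp3 is also among the most counted transcripts described above, which took a large share of the NT and starved libraries. Clu, which encodes the secreted chaperone clusterin and was named after its values were seen, was called for cysteamine alone (1.80 ± 0.32, edgeR adjusted p = 0.00262) and for the difference (2.58 ± 0.54, edgeR adjusted p = 0.022). Genes not usually expressed by fibroblasts were among the class. Ctrb1, a pancreatic protease gene, held 10 and 16 counts with cysteamine, 3 and 3 in NT2, 2 and 5 in cysteine starvation, and 6 and 10 in NT, with a difference of 4.81 ± 1.08 (edgeR adjusted p = 0.0242). Ttn, the giant muscle protein titin, was called at 2.02 ± 0.56, and the epithelial cadherin gene Cdh1 stood at 2.24 ± 1.35 (edgeR adjusted p = 0.365). These were the only measured members of the pancreatic, muscle and epithelial marker lists, and 0 members of the blood and immune, endothelial and neuron lists were measured.

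Of the 5 called above 0 outside the class, Fam129b (ENSMUST00000028135), a cell survival and adhesion gene also known as Niban2, had the smallest error. It measured 875 and 930 CPM with cysteamine, 396 and 373 CPM in NT2, 380 and 501 CPM in cysteine starvation, and 609 and 588 CPM in NT. Both pairs were without overlap, and the cysteamine effect of 1.23 ± 0.17 (edgeR adjusted p = 0.000367) was larger than the starvation effect of -0.49 ± 0.34. The difference for Fam129b was 1.71 ± 0.39 (edgeR adjusted p = 0.0242). Ahctf1, a nucleoporin gene also called Elys (1.92 ± 0.49), Upf1, the helicase of nonsense-mediated decay (1.49 ± 0.42), Lca5l (4.05 ± 1.12) and the ribosome biogenesis factor Wdr12 (2.72 ± 0.77) made up the rest. With total counts in place of TMM, Fam129b, Ahctf1 and Upf1 kept their sign and lost the call. Of 18 alternatives, Fam129b and Lca5l were called in 8, Ahctf1 in 7 and Upf1 in 5. Lca5l held 22 counts in NT2, 21 in cysteine starvation and 24 in NT. Wdr12 held 6 counts in cysteine starvation and 7 in NT. The exact 95% interval of its starvation ratio, 0.09 to 1.13, included 1.

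**Figure D4:**
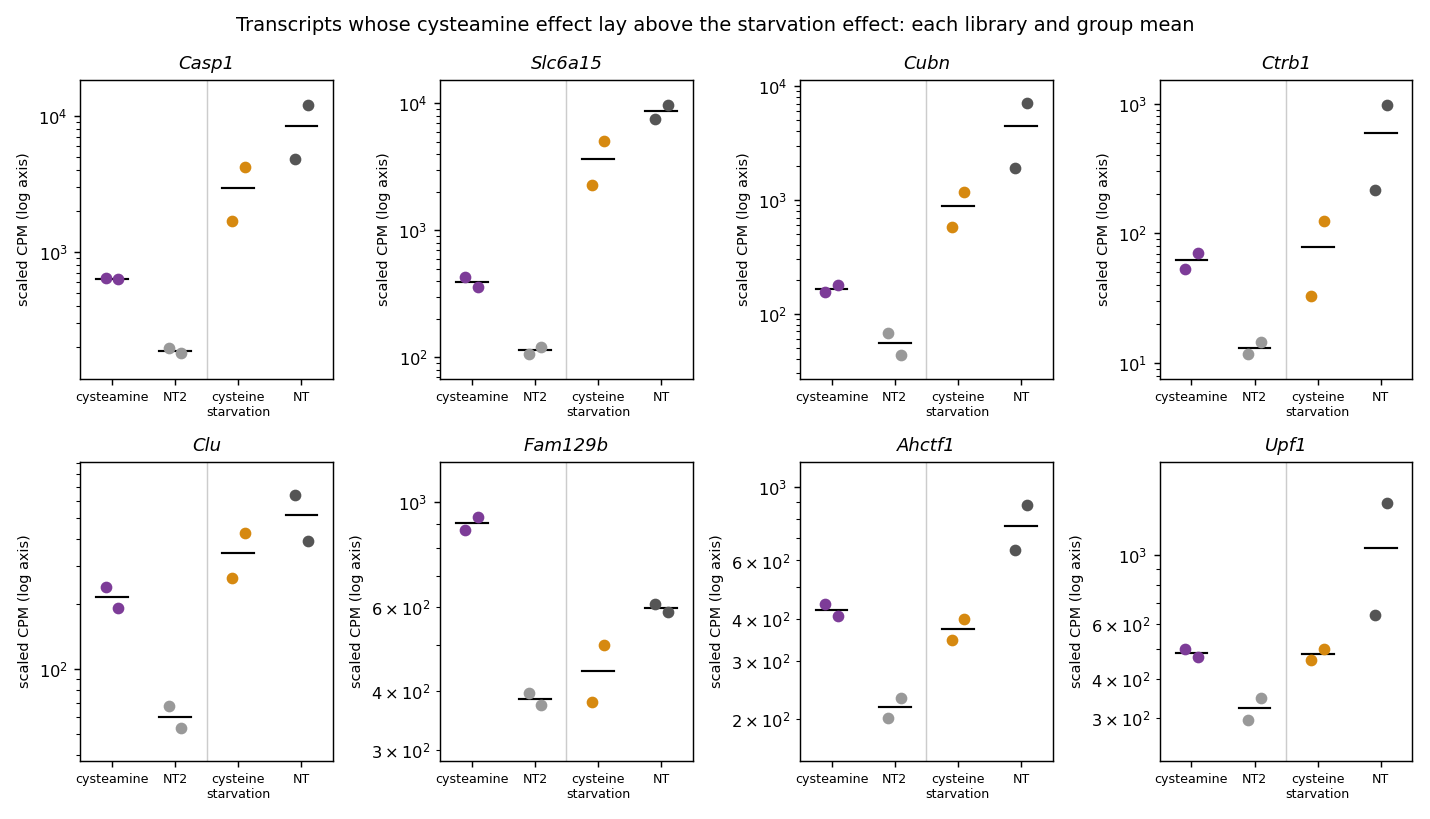
Scaled CPM on a log axis in each library of cysteamine, NT2, cysteine starvation and NT for 8 transcripts called above 0, with group means as lines. Cysteamine libraries lie above NT2 in all 8 and starved libraries below NT in all but Clu, and in Casp1, Slc6a15 and Cubn every starved and NT library lies above every cysteamine and NT2 library.

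Several redox and iron genes rose with cysteamine, but their difference from starvation was not called. Cysteamine libraries lay above NT2 in 39.7% of all transcripts. Nrf2 turns on genes against oxidants, and 3 of its targets were measured. Prdx1 (ENSMUST00000135573), a peroxide-reducing enzyme, measured 635 and 689 CPM with cysteamine, 301 and 315 CPM in NT2, 182 and 150 CPM in cysteine starvation, and 251 and 294 CPM in NT. Its cysteamine effect was 1.11 ± 0.18 (edgeR adjusted p = 0.00141), its starvation effect -0.63 ± 0.50 and its difference 1.74 ± 0.55 (edgeR adjusted p = 0.0691). Prdx1 was called by DESeq2 (1.84) and among transcripts with a mean count of at least 20 (1.90). It was also called with NT and NT2 pooled, where cysteamine is set directly against starvation (1.97). Abcc1, an exporter of glutathione conjugates and a member of the class, rose with cysteamine (1.35 ± 0.26, edgeR adjusted p = 0.00365) and had a difference of 1.37 ± 0.63. Sqstm1, the autophagy receptor p62, rose with cysteamine (1.21 ± 0.25, edgeR adjusted p = 0.00518) and stood at 0.92 ± 0.47 in starvation, a difference of 0.30 ± 0.56. Fth1, the iron-storing ferritin heavy chain, measured 2274 and 2446 CPM with cysteamine and 1180 and 896 CPM in NT2, against 974 and 726 CPM in cysteine starvation and 609 and 294 CPM in NT. Fth1 rose with cysteamine (1.18 ± 0.22, edgeR adjusted p = 0.00365), stood at 0.75 ± 0.38 in starvation and differed by 0.43 ± 0.45 (edgeR adjusted p = 0.634). Gpx4, the lipid peroxidase that blocks ferroptosis, stood at -1.38 ± 0.80 on 2 counts in NT.

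The promoter of Prdx1 is shown because its window, chr4:116685349-116685648 on the plus strand of GRCm38.p6 from RefSeq, holds the antioxidant response element. Capitals mark TGACNNNGC, here on the minus strand.
Prdx1: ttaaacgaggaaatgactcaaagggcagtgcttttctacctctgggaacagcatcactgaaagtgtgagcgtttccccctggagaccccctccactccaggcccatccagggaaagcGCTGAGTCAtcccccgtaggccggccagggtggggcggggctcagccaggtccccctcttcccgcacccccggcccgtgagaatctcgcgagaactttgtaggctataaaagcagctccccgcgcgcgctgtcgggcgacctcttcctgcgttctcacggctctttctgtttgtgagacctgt
Of the 3 Nrf2 targets measured 2 had a window in the table, and Prdx1 alone of these held the motif, against 17.5% of all listed transcripts that matched. Among called transcripts, TGACNNNGC was found in 3 of 46 matched above 0 (6.5%) and in 4 of 24 matched below 0 (16.7%).

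Growth-related lists gave 0 calls in the difference. Nucleolar factors rose with cysteamine in 3 of 4 measured, against 5.5% of all transcripts, Ncl by 1.19 ± 0.25, Nop56 by 1.12 ± 0.20 and Npm1 by 1.07 ± 0.21 on the log2 scale. Their median difference was 0.77, and -0.08 with total counts. Nop56 stood at 1.22 ± 0.46 in starvation too and at -0.09 ± 0.52 in the difference. All 52 ribosomal protein transcripts had a positive cysteamine effect (median 0.42), as did 829 of all 1399, and 6 were called higher, against 5.5% of all. A positive starvation effect was found in 44 (median 0.57) and in 711 of all 1399, and their median difference was -0.18. Reads of this family are shared with pseudogenes, so its values are uncertain. Heat shock chaperones had a median difference of 0.50, which became -0.33 with total counts and -0.70 without NT replicate 1. Hsph1, a cofactor of Hsp70, was the nearest to a call there at 1.28 ± 0.42 (edgeR adjusted p = 0.0791). Translation factors (13 measured), proteasome subunits (13), mitochondrially encoded genes (7), glycolysis (5), sterol synthesis (5), lysosome and autophagy (6), iron and ferroptosis (3), the G1/S genes (6), the G2 and mitosis genes (12) and histone-modifying enzymes (9) had medians between -0.19 and 0.29. The 6 of these medians that were positive became negative with total counts. The 4 that were negative became positive with NT and NT2 pooled, which sets cysteamine directly against starvation.

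Fibroblast markers overlapped the matrix list, which also holds Col1a1, Col1a2, Col3a1, Fn1 and Postn, so they are no separate evidence. Vim and S100a4, which are outside the matrix list, lay above 0. Of 12 listed 7 were measured, and Col1a2, Col3a1 and Fn1 were called below 0, while Vim (0.48 ± 0.43), S100a4 (0.37 ± 0.85), Postn (-1.02 ± 0.93) and Col1a1 were not called. The summed level of the 7 was 19235 and 19904 CPM with cysteamine, 34160 and 31271 CPM in NT2, 29278 and 32118 CPM in cysteine starvation, and 21775 and 14989 CPM in NT. In bulk RNA fewer cells of a type and less RNA per cell cannot be told apart. Whether the share of fibroblasts contributed to the matrix calls was not tested.

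Called transcripts resembled the rest in length and base composition. The median length was 4379.5 bases for those above 0, 4731.5 for those below 0 and 4350 for all 1385 with a sequence, and the median GC content was 49.4%, 51.0% and 51.0%. Runs of at least 12 A, which matter because capture used oligo(dT), were present in 10 of 60, 7 of 32 and 175 of 1385. Across all transcripts the 2 effects had a Pearson correlation of -0.26 and a Spearman correlation of -0.23, and outside the class the Spearman correlation was -0.02. These correlations run over transcripts within the same 8 libraries, and transcripts are not independent replicates.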

How the data were processed

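Poly(A) RNA of mouse embryonic fibroblasts was selected with oligo(dT) beads, and fragments of 50 to 100 nt were made into libraries with a poly(A) tail and an adapter, per the labels' protocols, which mention no molecular identifiers. The deposited tables hold whole counts per Ensembl transcript for 1399 transcripts, each with at least 1 count in every library, so transcripts absent from a library are not seen. STAR 2.7.10a, Bowtie 1.2.3, cutadapt 2.8, bcl2fastq 2.20.0.422 and GRCm39 appear in the submitters' processing notes. No source used here gives the counting tool, its annotation or whether it used strand. Counts were analysed as deposited with edgeR 4.0.16 in R 4.3.3 (TMM scaling, quasi-likelihood test, 7 group means on 14 libraries, Benjamini-Hochberg adjustment over 1399 transcripts, threshold 0.05), after checks on simulated data. DESeq2 1.42.0 and limma 3.58.1 were alternatives, with other scalings, filters, a replicate block and left-out libraries. SE is the absolute log2 value over the square root of F. Intervals are exact at 95% and cover counting error only. Symbols came from GENCODE M21 for 1385 transcripts, and promoters from RefSeq. Transcripts were named as the 12 highest and 12 lowest calls with at least 10 counts in each group, the 8 and 8 outside the class, up to 4 members per list by p, the fibroblast markers, and the 8 largest calls with opposite effects. Other named transcripts were chosen for their values. The members and lists were chosen with earlier results of these data known.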

Additional observations from a re-analysis of the deposited data

Results flagged for a closer look

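A total of 50 called transcripts had both effects past an unadjusted p of 0.05 in the edgeR fit with opposite signs, and the 8 with the largest differences of effects are given here. The log2 difference was 4.81 for Ctrb1, 4.12 for Robo1, 3.84 for Nme9, 3.74 for Cubn, 3.46 for Zfp831, 3.29 for Pglyrp3, 3.29 for Adamts13 and 3.24 for Casp1. All 8 were higher with cysteamine than in NT2 and lower in cysteine starvation than in NT. NT2 held only 1 and 2 counts of Robo1.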

How the results depend on the processing

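Counts are given as above and below 0, or higher and lower. For the difference of effects (62 and 33) they were 62 and 21 with RLE factors, 31 and 147 with total counts, 96 and 35 with DESeq2, 9 and 2 with limma, 48 and 27 at a mean count of at least 20, 30 and 9 on the 8 libraries alone, 5 and 9 without the class, and 1 and 2 with 1 pooled untreated group. Without 1 library each they ran from 0 to 117 and from 0 to 36. For cysteamine (77 and 70) they were 32 and 61 with total counts, 0 and 0 with limma, and 149 and 127 without the class, and with libraries left out they ran from 6 to 202 and from 9 to 120. For starvation (0 and 0) they were 0 and 2 with RLE, 29 and 2 with total counts, 12 and 55 with DESeq2 and 5 and 0 with limma, and with libraries left out they ran from 0 to 18 and from 0 to 94. The replicate block gave 83 and 34 for the difference and 0 and 6 for starvation, and Fn1 lost its call under it (-1.70, edgeR adjusted p = 0.0546); deviations of same-numbered libraries correlated between -0.047 and 0.287, so the numbers were not taken to pair the libraries. The fit without replicate 2 of both NT and cysteine starvation was chosen after seeing the data and gave 56 and 18 for the difference. Signs of the called transcripts tested were kept in all these fits except with 1 pooled untreated group. Their selection in these same libraries favoured this. With the pooled group, which sets cysteamine directly against starvation, 6 of the 62 above 0 and 32 of the 33 below 0 kept their sign. Transcripts named by the stated rules that changed sign stood at 0.78 for Adamts1, -2.38 for Cubn, -1.55 for Zfp831, -3.25 for Pglyrp3 and -1.02 for Adamts13. Further values were -2.22 for Casp1, -2.15 for Pcdha9, -1.86 for Pglyrp4, -2.77 for Ccn6 and -3.21 for Slc6a15. The others were -1.89 for Gnmt, -2.79 for Hoxa9, -0.19 for Ctrb1, -0.67 for Robo1 and -1.31 for Nme9. The median of endoplasmic reticulum chaperones in that setting was 0.11. Depth limits NT most, with a median of 7 and 3 counts per transcript.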
